A study of Mus musculus with 3 samples.

Results

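Non-classical monocytes were studied as a group of 61 cells among the 2144 cells kept from a single-cell RNA sequencing series of the mouse brain (2.85%, exact 95% interval 2.18 to 3.64%). The cells were chosen from their own counts of unique molecular identifiers (UMIs, 1 per captured RNA molecule). A member had at least 3 UMIs, and at least 0.1% of its UMIs, from the 5 genes Cd300e, Treml4, Adgre4, Ace and Fabp4. It also had less than 0.2% from the classical monocyte genes Ly6c2, Chil3, Fn1, F10 and Vcan, less than 1% from the neutrophil genes S100a8, S100a9, Camp and Ngp, and less than 0.1% from the macrophage genes Mrc1, Pf4, Cbr2, Cd163 and Cd209f. These 19 genes define the group, so their values are described and support nothing. Whole brain without the cerebellum came from C57BL6J females aged 5 months, and cells were sorted on Cd11b, an integrin chain of microglia and other myeloid cells. The group Ctrl was 1 untreated animal. The group D0 was 2 pooled animals fed a diet with 1200 mg/kg PLX5622, an inhibitor of the receptor Csf1r, for 14 days to remove microglia. The group D2 was 1 animal that ate that diet equally long and then control food for 2 days. Each group was 1 library, and no label ties the barcode numbers 1, 2 and 3 to Ctrl, D0 or D2. The cells are therefore given as library 1, library 2 and library 3. No comparison between the study's groups was made, and no test or p-value was possible, since cells of 1 library are not replicates. Intervals are exact 95% intervals and cover counting error only, not the spread between animals or cells.

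Monocytes of the mouse come in classical cells with much Ly6C and Ccr2, which leave the blood for inflamed tissue, and non-classical cells with little of both. Non-classical monocytes arise largely from classical ones, need the orphan nuclear receptor Nr4a1, carry much of the fractalkine receptor Cx3cr1, and crawl along the inner wall of blood vessels with the integrin LFA-1. Signals through Csf1r support their survival. In the brain they are cells of the blood and vessel lumen rather than of the tissue, and a Cd11b sort can take them along with microglia.

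The libraries held 6410990, 4022293 and 2831118 UMIs. No barcode was shared between them. The members held 14584 UMIs in library 1, 68379 in library 2 and 140399 in library 3, with medians of 3598.5, 2689.5 and 3513 UMIs per cell and a range of 1566 to 8172 over all members. Levels are given as CPM, the UMIs of a gene per 1000000 UMIs summed over the members of a library, for libraries 2 and 3. Where a class has a pair of values with no library named, library 2 comes first and library 3 second. Library 1 had 4 members and is given as counts of cells and UMIs and as shares per cell. Each read came from the 3′ end of an RNA, so levels are compared for 1 gene between groups of cells and not between genes.

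The promoters of 4 genes are shown because their genes mark these cells: Treml4 and Ace from the rule, and Spn and Pglyrp1 from genes the rule did not use. Each sequence is the stretch just before the transcription start in RefSeq's table for GRCm38.p6, 5′ to 3′ on the strand of the gene, with bases inside an annotated exon left out. Treml4 is chr17:48264045-48264294 (plus strand), Spn is chr7:127137824-127138073 (minus strand), Ace is chr11:105967698-105967944 (plus strand) and Pglyrp1 is chr7:18884440-18884679 (plus strand). Capitals mark letters searched on both strands: GAGGAAG (a PU.1 motif), GGGTGTG (a KLF motif), AAAGGTCA (an NR4A motif) and TTGCGCAA (a C/EBP motif).
Treml4: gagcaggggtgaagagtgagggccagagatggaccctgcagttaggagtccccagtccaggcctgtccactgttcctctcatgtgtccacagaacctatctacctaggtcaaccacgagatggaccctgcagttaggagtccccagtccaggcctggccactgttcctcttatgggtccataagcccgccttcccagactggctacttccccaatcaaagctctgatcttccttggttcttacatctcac
Spn: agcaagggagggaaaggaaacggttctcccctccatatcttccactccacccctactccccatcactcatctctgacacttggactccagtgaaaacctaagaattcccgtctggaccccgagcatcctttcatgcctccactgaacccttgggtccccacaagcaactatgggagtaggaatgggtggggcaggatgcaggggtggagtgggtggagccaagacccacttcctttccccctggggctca
Ace: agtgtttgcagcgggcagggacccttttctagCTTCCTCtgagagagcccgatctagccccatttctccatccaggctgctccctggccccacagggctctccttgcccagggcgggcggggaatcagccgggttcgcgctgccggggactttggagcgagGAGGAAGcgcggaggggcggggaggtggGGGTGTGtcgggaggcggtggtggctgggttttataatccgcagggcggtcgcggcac
Pglyrp1: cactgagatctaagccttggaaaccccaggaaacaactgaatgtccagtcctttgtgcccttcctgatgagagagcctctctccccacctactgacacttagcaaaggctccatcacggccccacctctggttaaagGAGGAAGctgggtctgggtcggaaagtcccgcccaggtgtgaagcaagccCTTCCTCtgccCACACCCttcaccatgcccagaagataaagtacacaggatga
The search covered 12 promoters of 11 genes that mark or regulate these cells. Ace, at the start shown, and Pglyrp1 each held GAGGAAG on both strands and GGGTGTG on 1 strand. The other 10 promoters, those of Treml4, Spn, Cd300e, Adgre4, Nr4a1, Eno3, Ear2, Pou2f2, Cx3cr1 and a further start of Ace, held none of the 4 motifs. Of 32851 promoters, 10.6% held GAGGAAG, 6.93% GGGTGTG, 1.34% AAAGGTCA and 0.164% TTGCGCAA in the 250 bases before the start, so 2 of 12 sets nothing apart from the background. These are matches of letters and not sites shown to be bound.

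The 5 genes of the rule were seen in most members, but seldom all in 1 cell. Only 1 had a UMI in 2 of the 61 members, 2 in 9 members, 3 in 20 members, 4 in 18 members and all 5 in 12 members. Cd300e, an activating receptor of the Cd300 family (chr11:115051917-115062177), had 6, 10 and 66 UMIs in libraries 1, 2 and 3, or 146 CPM and 470 CPM. Treml4, a receptor that amplifies Toll-like receptor signals (chr17:48264295-48275360), had 395 CPM and 506 CPM. Adgre4, an adhesion G protein-coupled receptor (chr17:55749984-55853662), had 278 CPM and 299 CPM in the same order. Ace, the angiotensin-converting enzyme (chr11:105967945-105989964), had 366 CPM and 385 CPM. Fabp4, a fatty acid carrier (chr3:10204088-10208576), had 834 CPM and 499 CPM. Cd300e was the marker that was higher in library 3, Fabp4 was the one that was higher in library 2, and the other 3 had overlapping counting intervals. With 58 members thinned to 2000 UMIs, 43.1% had a UMI of Cd300e, 50% of Treml4, 41.4% of Adgre4, 50% of Ace and 65.5% of Fabp4. Unthinned, the shares were 57.4%, 80.3%, 63.9%, 70.5% and 75.4%. In natural killer cells, which should lack these genes, 0 of 106 thinned cells had a UMI of any of the 5, which allows a share of up to 2.83% for each, at a median of 3140.5 UMIs before thinning against 3235 in members. Unthinned, 0.833% of natural killer cells had a Cd300e UMI. Cells that met the rule were set aside before natural killer cells were named, so these low shares are partly fixed by the choice.

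Members had 3 to 30 marker UMIs, with a median of 7, and 0.103 to 0.672% of their UMIs from the markers, with a median of 0.204%. Just inside the threshold, 5 members had 3 marker UMIs and 6 had less than 0.12%. Just outside it, 1 cell that met the other conditions had a marker share between 0.08 and 0.1%. In all, 33 cells had at least 3 marker UMIs and met the other limits but had 0.0125 to 0.0847% from the markers (3, 7 and 23 in libraries 1, 2 and 3). They had a median of 15132 UMIs and of 5 marker UMIs, and 8 were microglia, 8 dendritic-like cells and 17 in no class named here. No classical monocyte gene of the rule had a UMI in 30 of the 61 members, and no macrophage gene of the rule had one in 59. The 77 cells that met the marker condition included 16 that were over another limit, of which 10 were over the neutrophil limit alone, 5 over the classical limit alone and 1 over both.

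The label was checked with 27 other genes known from non-classical monocytes, such as Spn (CD43), Itgal (the LFA-1 α chain), Fcgr4, Eno3 and Pglyrp1. These genes made up a median of 2.09% of UMIs per member in library 1 (1.93 to 2.96%), 2.18% in library 2 (0.848 to 3.73%) and 2.15% in library 3 (1.36 to 3.38%). Monocytes with Ly6c2 and Fn1 (80 cells with at least 0.2% of UMIs from the classical genes of the rule) had medians of 0.922%, 0.877% and 0.695% in libraries 1, 2 and 3. Microglia (cells in which 10 marker genes of microglia took 0.3% of UMIs or more) had medians of 0.531%, 0.381% and 0.297%, and dendritic-like and natural killer cells had medians under 0.3% in every library. The member medians of the 3 libraries thus lay close together and above those of the other 4 classes. Single cells did overlap: the lowest member had 0.848%, and the highest Ly6c2 and Fn1 monocyte had 3.16%. Since the cells were chosen from the same RNA counts, this is a description and not a test.

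**Figure D1:**
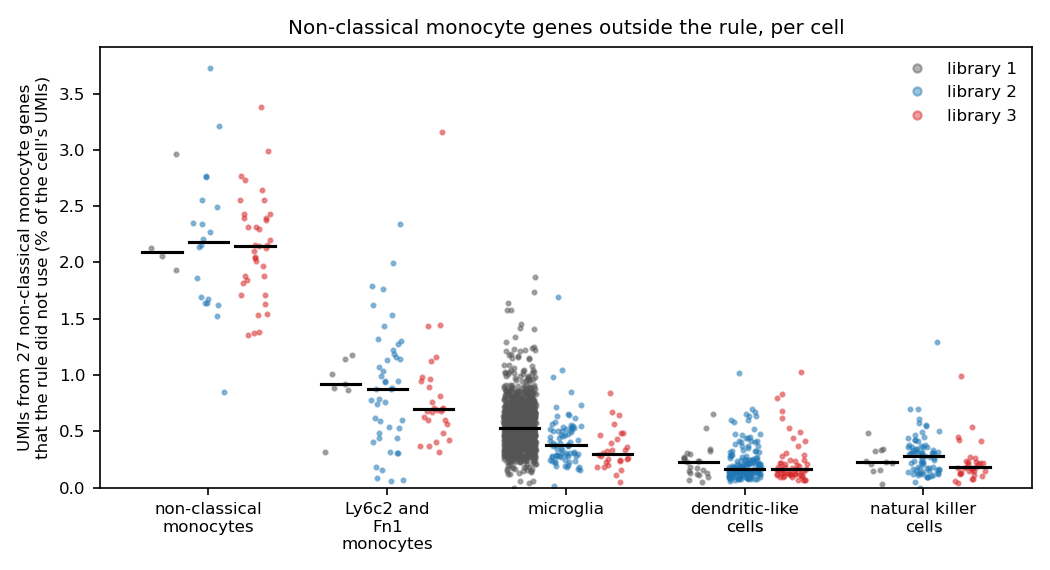
Share of each cell's UMIs from the 27 non-classical monocyte genes that the rule did not use (y axis, percent), by class and library (points are cells, black bars are medians). The member medians are 2.09%, 2.18% and 2.15% in libraries 1, 2 and 3, and those of Ly6c2 and Fn1 monocytes are 0.922%, 0.877% and 0.695%.

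The members also lay together when all 19 genes of the rule were left out. Among the 15 nearest neighbours of a member in 30 principal components, a mean of 78.6% were members, while members made up 2.85% of all cells. In 57 of 61 members at least 50% of the neighbours were members, and the mean was 76.7%, 75.7% and 80.4% for the members of libraries 1, 2 and 3. Ly6c2 and Fn1 monocytes supplied 2.6% of the neighbours, microglia 1.3%, dendritic-like cells 1.3% and natural killer cells 0%. The largest other source, with 16.2%, was cells in no named class, which are 356 of the 2144 cells. For non-members the mean share of members among the neighbours was 0.61%. Among non-members, 10 had 50% or more member neighbours, of which 3 met the marker condition but were over a limit and 4 had 1 or 2 marker UMIs. Of these 10 cells, 8 were in no named class and 2 were Ly6c2 and Fn1 monocytes.

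Markers of other cell types were low in most members. Ace and Fabp4 are also endothelial genes, but of 9 endothelial markers Kdr and Tek were at 0 in all members, Cldn5 had 1 UMI, and Ly6a gave 23 of the 34 endothelial UMIs. T cell, platelet and red cell markers had 0 UMIs, B cell markers 3 UMIs and natural killer markers 4 UMIs. The 8 neutrophil markers outside the rule had 19 UMIs (85.1 CPM over all members, against 343 CPM in Ly6c2 and Fn1 monocytes), with Ly6g, Mmp8, Mmp9 and Ltf at 0. The 7 markers of border-associated macrophages outside the rule had 27 UMIs (121 CPM, interval 79.7 to 176, against 67.9 CPM, interval 48.1 to 93.2). Clec4n, a lectin receptor, gave 26 of these (0, 7 and 19 in libraries 1, 2 and 3), and Lyve1, Ms4a7, Folr2, Cd209b and Cd209g were at 0. The 6 neural markers also had 27 UMIs, 25 of them from the myelin gene Mbp. Sall1, a transcription factor of microglia, was at 0 in every library. In library 3, 8 of 10 microglia markers were at 0 and the list summed to 171 CPM, against 863 CPM in library 2, and the 4 members of library 1 had 110 UMIs of it. There were 3 mixed members, with markers of another class. One in library 1 had 2.26% of its UMIs from microglia markers, one in library 2 had 0.774% from microglia markers, and one in library 2 had 0.689% from dendritic markers and 6.21% from MHC class II genes. Without them the microglia list had 6 UMIs in library 1 and 323 CPM in library 2. Doublet calling marked 7 of 2144 cells, a yield under 0.5%, and 0 members, so doublets may remain.

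Non-classical monocytes took different shares of the 3 libraries. Library 1 had 4 members among 1263 cells (0.317%, interval 0.0864 to 0.809%), library 2 had 20 among 595 (3.36%, interval 2.07 to 5.14%), and library 3 had 37 among 286 (12.9%, interval 9.28 to 17.4%). These intervals do not overlap. Microglia made up 93.3%, 12.8% and 9.79% of libraries 1, 2 and 3, and every share depends on how many microglia a library holds. With microglia left out of the base, library 1 had 4 among 84 (4.76%, interval 1.31 to 11.7%), library 2 had 20 among 519 (3.85%, interval 2.37 to 5.89%), and library 3 had 37 among 258 (14.3%, interval 10.3 to 19.2%). On this base libraries 1 and 2 overlapped, and library 3 lay above library 2. Against Ly6c2 and Fn1 monocytes there were 4 members to 7 in library 1, 20 to 45 in library 2 and 37 to 28 in library 3. Members were thus 30.8% of both classes in library 2 (19.9 to 43.4%) and 56.9% in library 3 (44.0 to 69.2%).

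Non-classical monocytes were compared with Ly6c2 and Fn1 monocytes, the most like class, within libraries 2 and 3. A gene is called higher or lower when its CPM differed at least 2-fold in the same direction in both libraries, on a log2 scale with a prior of 1 count. Of 1873 genes with at least 50 UMIs over both classes, the rule's genes left out, 83 were higher (4.43%) and 117 lower (6.25%). The Ly6c2 and Fn1 monocytes held 263462 and 261177 UMIs, against 68379 and 140399 in members. A gene high in that class therefore reached 50 UMIs more easily, which can raise the number of lower genes here and in the lists below. Genes with 0 UMIs in members, such as Usp18 and Prtn3, entered through that class alone. With scaling by trimmed means (TMM), which moved every log2 ratio by -0.19 in library 2 and by -0.16 in library 3, 64 were higher and 154 lower. The classes differed in depth and cycling. The Ly6c2 and Fn1 monocytes had medians of 5157 UMIs in library 2 and 8644 in library 3. In library 3, 16 of these 28 cells were cycling, against 3 of 37 members. With cycling cells left out, 60 genes were higher and 80 lower, though 12 Ly6c2 and Fn1 monocytes then remained in library 3. Fewer genes then reached 50 UMIs (in the interferon list 7, against 12), so these counts are not shares of the 1873. Where leaving out cycling cells ends the call of a list gene named below, it is said beside the list. In library 2, 4 of the 45 Ly6c2 and Fn1 monocytes had at least 0.3% of their UMIs from natural killer markers (1123 CPM of the list summed over the class).

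Of the 27 non-classical genes outside the rule, 20 could be compared, of which 13 were higher and 0 lower. Their median log2 ratio was 1.89 in library 2 and 2.22 in library 3, beside -0.11 and -0.04 for all genes compared. Eno3, a muscle form of the glycolytic enzyme enolase, had 804 CPM (606 to 1047) and 1125 CPM (957 to 1315), against 11.4 CPM and 76.6 CPM in Ly6c2 and Fn1 monocytes. Among members thinned to 2000 UMIs, 82.8% had an Eno3 UMI, against 6.49% of Ly6c2 and Fn1 monocytes and 3.77% of natural killer cells (unthinned 91.8%, 12.5% and 4.17%, at medians of 3235, 6275.5 and 3140.5 UMIs). Pglyrp1, a secreted peptidoglycan recognition protein whose promoter is printed above, had 1565 CPM (1282 to 1891) and 1389 CPM (1201 to 1598), against 133 CPM and 180 CPM. The counting intervals of the 2 classes did not overlap for either gene in either library. Fcgr4, an activating Fc receptor for IgG2 antibodies, had 497 CPM and 427 CPM against 15.2 CPM and 72.7 CPM. Ear2, a secreted ribonuclease, had 1038 CPM and 1567 CPM against 163 CPM and 165 CPM, and reads can be shared with near-identical Ear genes. Cd36, a scavenger receptor for lipids, was among the largest differences, with log2 ratios of 3.88 and 4.02 from 21 and 28 UMIs in members. Gngt2, Lst1, Lair1, Clec4a1 and Ceacam1 were also higher, Clec4a1 not with cycling cells left out.

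The other 7 compared genes of that list were not 2-fold apart in both libraries, and they include the best-known regulators. Nr4a1, on which these monocytes depend, had 790 CPM (593 to 1030) and 776 CPM (637 to 937), against 566 CPM (478 to 664) and 410 CPM (336 to 495). Its intervals overlapped in library 2 and not in library 3. Cx3cr1, the fractalkine receptor, had 336 CPM (213 to 505) and 285 CPM (204 to 388), against 190 CPM (141 to 250) and 84.2 CPM (52.8 to 128). The separate intervals of Cx3cr1 likewise overlapped in library 2 and not in library 3. Klf2 had 1038 CPM and 826 CPM against 782 CPM and 666 CPM, and Cebpb had 3978 CPM and 3989 CPM against 2725 CPM and 3044 CPM. The 7 genes that could not be compared had fewer than 50 UMIs in all, among them Tcf7l2, S1pr5 and Itgax, and Apoc2 had 0 UMIs.

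**Figure D2:**
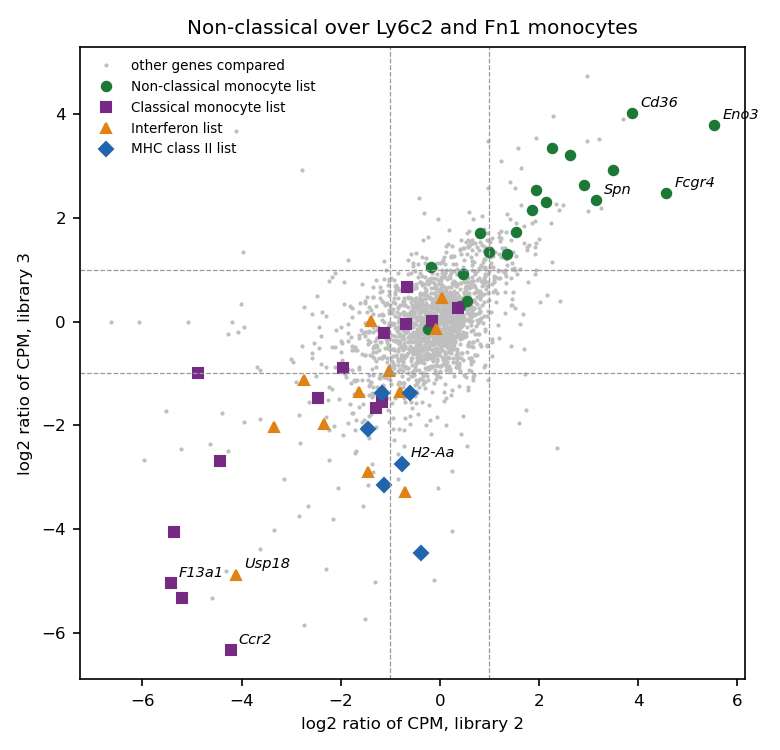
Log2 ratio of CPM of non-classical over Ly6c2 and Fn1 monocytes in library 2 (x axis) and library 3 (y axis) for 1873 genes, with 4 gene lists in colour and dashed lines at 2-fold. The non-classical list lies to the upper right (13 of 20 genes past both lines) and 8 of 15 classical genes to the lower left.

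Genes of classical monocytes outside the rule were lower in part than in Ly6c2 and Fn1 monocytes. Of 15 compared, 0 were higher and 8 lower, with medians of -1.95 in library 2 and -1.48 in library 3. Members did carry this list: its 16 genes summed to 6566 CPM and 8711 CPM, against 13827 CPM and 12183 CPM in Ly6c2 and Fn1 monocytes and 1258 CPM and 2718 CPM in microglia. The median share per cell over all libraries was 0.744% in members, 1.28% in Ly6c2 and Fn1 monocytes and 0.0806% in microglia. Against microglia 6 of 9 genes compared were higher and 1 lower, and against dendritic-like cells 4 of 10 were higher and 1 lower. Ccr2, the chemokine receptor that takes classical monocytes out of the marrow, had 2 UMIs in the members of library 2 and 0 in those of library 3, against 172 and 104 UMIs (653 CPM and 398 CPM). Over all libraries its level was 58.3 times lower in members (15.99 to 484). F13a1, the coagulation factor XIII A chain, had 1 UMI against 187, and Thbs1, thrombospondin, had 1 against 141. Prtn3, a granule protease, had 0 against 88 and was at least 11.7-fold lower, taking 3 counts over all members as the floor. Anxa3 and Mnda, which the list does not hold, had 2 UMIs each against 88 and 109. Plac8, one of the 7 not called, had 3715 CPM and 5313 CPM against 5940 CPM and 5514 CPM.

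**Figure D3:**
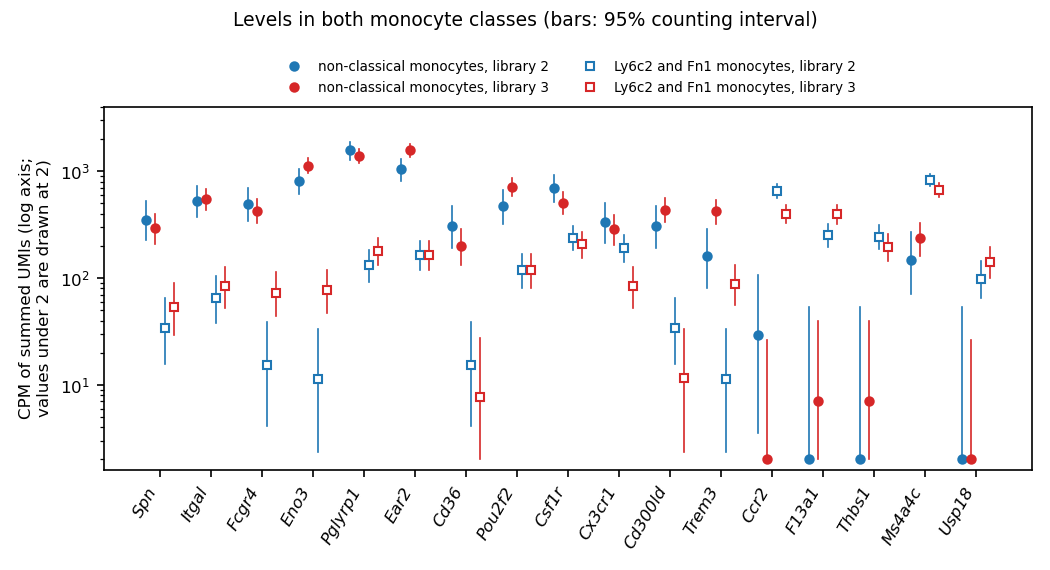
CPM of summed UMIs (log y axis, values under 2 drawn at 2) of 17 genes in non-classical monocytes (filled) and Ly6c2 and Fn1 monocytes (open) of libraries 2 and 3, with exact 95% counting intervals. Spn to Trem3 are higher in members, with Cx3cr1 under 2-fold apart in library 2, and Ccr2 to Usp18 are lower.

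Among genes of adhesion and migration, 13 of 21 were compared, of which 5 were higher and 3 lower. Itgal, the α chain of LFA-1, had 526 CPM (369 to 729) and 548 CPM (433 to 685), against 64.5 CPM and 84.2 CPM. Spn, the sialoprotein CD43 by which these monocytes are often gated, had 351 CPM (225 to 522) and 292 CPM (210 to 396), against 34.2 CPM and 53.6 CPM. The counting intervals of these 2 genes overlapped between the libraries and did not overlap with those of Ly6c2 and Fn1 monocytes. Itga4 and Itgb1, the 2 chains of VLA-4, were higher as well, with 322 CPM and 392 CPM of Itga4 against 137 CPM and 123 CPM. Ccr2 and Itgb7 were among the lower ones. Itgb2, the β chain that pairs with Itgal, had 366 CPM and 755 CPM against 235 CPM and 314 CPM.

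Among growth factor receptors and survival genes, 7 of 15 were compared, of which 4 were higher and 0 lower. Csf1r, the receptor that PLX5622 blocks, had 702 CPM (518 to 931) and 506 CPM (395 to 638), against 239 CPM (184 to 306) and 207 CPM (155 to 270). It was 2.94 times higher in library 2 (1.97 to 4.34) and 2.45 times higher in library 3 (1.69 to 3.55). The other 3 were Bcl2a1a, Bcl2a1b and Bcl2a1d, copies of an anti-apoptotic gene that are nearly identical, so that the split of reads among them is uncertain. Bcl2a1b had 834 CPM and 620 CPM against 144 CPM and 126 CPM. With cycling cells left out 2 genes of the list were higher, Bcl2a1b and Bcl2a1d. Csf1r then had log2 ratios of 1.46 and 0.85, the second under 2-fold. Bcl2a1a was not called without the mixed members either.

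Among 14 transcription factors compared of 30, 1 was higher and 1 lower. Pou2f2 (Oct-2) had 468 CPM (320 to 661) and 712 CPM (580 to 866), against 118 CPM (79.9 to 167) and 119 CPM (80.6 to 168). Irf7, a master regulator of the interferon response, had 87.7 CPM and 85.5 CPM against 471 CPM and 352 CPM. The list's medians were 0.39 and 0.29. Hes1, a repressor downstream of Notch that is on no list, had log2 ratios of 3.69 and 3.90, with 512 CPM and 470 CPM in members. Ltb, a lymphotoxin, and Sh2d1b1, an adaptor of SLAM receptors, were also among the 10 largest differences, with 190 CPM and 271 CPM of Ltb against 15.2 CPM and 19.1 CPM.

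Of the receptor families, only the Fc receptors had genes called in both directions. Of the Cd300 family outside the rule 2 of 6 genes were compared, 1 was higher and 0 lower. The higher one, Cd300ld, had 307 CPM and 434 CPM against 34.2 CPM and 11.5 CPM. Of the Trem family 2 of 5 were compared, 1 was higher and 0 lower. The higher one, Trem3, had 161 CPM and 420 CPM against 11.4 CPM and 88.1 CPM. All 6 Fc receptor genes were compared. Fcgr4 was higher and Fcgr1, the high-affinity IgG receptor, was lower, with 29.2 CPM and 28.5 CPM against 159 CPM and 207 CPM. Fcer1g, the signalling chain shared by Fc receptors, had 6610 CPM and 6567 CPM against 3621 CPM and 2979 CPM.

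Interferon genes were lower in part. Of 17 genes, 12 were compared, 0 were higher and 6 lower (Bst2, Ifit3, Irf7, Isg15, Oasl2 and Usp18), with medians of -1.42 and -1.36. With cycling cells left out 7 were compared and 3 lower (Bst2, Irf7 and Rtp4), and Ifit3, Oasl2 and Usp18 had too few UMIs to be compared. Isg15 then had log2 ratios of -0.99 and -3.27, the first just under 2-fold. Isg15, a ubiquitin-like protein, had 102 CPM and 42.7 CPM against 288 CPM and 352 CPM. Usp18, the protease that removes Isg15, had 0 UMIs in members and was at least 8.65-fold lower over all libraries. It was compared only because of its UMIs in Ly6c2 and Fn1 monocytes, where it is high. The median over the list of the mean log2 ratio of both libraries was -1.71, and -1.29 with sums of 0 set to 3 counts.

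Antigen presentation differed by class of molecule. Of 8 MHC class II genes 6 were compared, 0 were higher and 3 lower, with medians of -0.94 in library 2 and -2.40 in library 3. H2-Ab1, a β chain, had 1316 CPM (1058 to 1618) and 185 CPM (121 to 271), against 2870 CPM and 1677 CPM. The member with dendritic markers lies in library 2. Without the mixed members H2-Ab1 had 359 CPM there, and 6 of 6 class II genes were lower. With cycling cells left out 2 of 6 were lower, and H2-Ab1 had log2 ratios of -2.98 and 0.41. Of 12 MHC class I genes 10 were compared, 0 were higher and 1 lower (Tapbp), with medians of -0.06 and 0.82. Tapbp was not called without the mixed members or without cycling cells.

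Of 7 cytokine genes compared of 13, 0 were higher and 3 lower (Ccl5, Cxcl16 and Cxcl2). Ccl5 had 4 and 0 UMIs in members against 1065 and 7, and 394 of the 1065 came from the 4 cells with natural killer markers. Its call in library 3 thus rests on 0 against 7 UMIs. The 7 UMIs are 26.8 CPM (10.8 to 55.2), and the 0 UMIs in members allow up to 26.3 CPM, so the counting intervals overlapped there. Natural killer cells themselves had 11969 CPM and 14505 CPM of Ccl5. Without the 4 cells the 3 genes were still lower, Ccl5 in library 3 by the same 7 UMIs. With cycling cells left out 1 of 6 was lower (Ccl5, with at most 7 UMIs in library 3), and Cxcl2 had log2 ratios of -1.35 and 1.70. Of 12 immediate early and stress genes compared of 14, Hspa1b was higher and Atf3 and Fos were lower. Fos had 863 CPM and 349 CPM against 2854 CPM and 2037 CPM. Of 4 galectin genes compared, Lgals1 and Lgals9 were lower, Lgals9 with too few UMIs to be compared when cycling cells were left out. Lgals1 had 87.7 CPM and 199 CPM against 824 CPM and 1673 CPM. Of 9 genes of lipid handling compared of 15, Cd36 was higher and Npc2 lower, and of 4 complement genes compared of 9, Cfp was lower. Leaving out the mixed members made C1qa, C1qb and C1qc lower as well and Apoe higher. Of the 20 proliferation genes 3 were compared and 0 were called, and 4 of 61 members were cycling (0, 1 and 3 in libraries 1, 2 and 3).

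Against microglia of libraries 2 and 3, 221 of 2962 genes were higher in members (7.46%) and 388 lower (13.1%). The microglia of library 3 were 28 cells, 26 of them cycling, with a median of 20180 UMIs. Of 20 non-classical genes compared 17 were higher and 1 lower. The lower one was Cx3cr1, with 1166 CPM and 590 CPM in microglia. Csf1r, with 1326 CPM and 569 CPM in microglia, was not called. The microglia were chosen by their markers, so that the lower level of all 9 compared in members is fixed by the choice. Of complement genes 5 of 7 were lower, among them C1qa, C1qb and C1qc. Spn had 2.41 CPM and 13.4 CPM in microglia.

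Against dendritic-like cells, 323 of 4142 genes were higher in members (7.8%) and 389 lower (9.39%). Of 22 non-classical genes compared 19 were higher and 0 lower. All 8 MHC class II genes were lower, with medians of -3.36 in library 2 and -5.44 in library 3. H2-Aa, an α chain, had 15470 CPM and 12481 CPM in dendritic-like cells, against 1477 CPM and 178 CPM in members. Of 19 proliferation genes compared 14 were lower, and 32 of 164 and 30 of 57 dendritic-like cells were cycling in libraries 2 and 3.

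The members of libraries 2 and 3 were also set side by side. Of 1423 genes with at least 20 UMIs in these members, 44 were higher in library 3 (3.09%) and 65 lower (4.57%), counting those whose counting intervals do not overlap. Without the mixed members, 1359 genes were compared, of which 34 were higher and 33 lower. Of 21 non-classical genes outside the rule 2 were higher and 0 lower in library 3, with a median log2 difference of -0.02. This count is too small to set the list apart from all genes compared. The higher ones were Gngt2, with 2940 CPM and 3924 CPM, and Ear2, with 1038 CPM and 1567 CPM. Gngt2 had 3280 CPM in library 2 without the mixed members, with an interval that overlapped that of library 3, and Ear2 alone was higher. No transcription factor of 11 differed by this rule, and Nr4a1 had 790 CPM and 776 CPM.

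Apoe, the main lipid carrier of brain lipoproteins, had 5967 CPM (5402 to 6575) in the members of library 2 and 748 CPM (612 to 905) in those of library 3. The members of library 2 had 0 to 65 Apoe UMIs with a median of 16, and those of library 3 had 0 to 12 with a median of 1. Without the mixed members the level in library 2 was 6632 CPM. Apoe was lower in library 3 in each other class as well. It had 3063 CPM and 249 CPM in Ly6c2 and Fn1 monocytes, 565 CPM and 108 CPM in dendritic-like cells, and 16379 CPM and 1325 CPM in microglia. Natural killer cells should not make Apoe, and theirs went from 128 CPM to 0 UMIs. The part of free RNA in the Apoe level of members was not tested.

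MHC class II and C1q genes were lower in library 3, but a few cells carried most of them in library 2. H2-Aa, H2-Ab1, H2-Eb1 and Cd74, 4 of 5 class II genes compared, were lower in library 3. Over the class II list, 3 members held 88.3% of the UMIs of library 2. The share of a member's UMIs from the list had a median of 0.131% in library 2 (0.0342 to 6.21%) and 0.0828% in library 3 (0 to 0.839%). C1qa had 366 CPM against 0 UMIs, and C1qb and C1qc were lower too. Without the mixed members 0 of 4 class II genes differed by this rule, and C1qa had 35.9 CPM in library 2. Natural killer cells also had more class II RNA in library 2, with 621 CPM of H2-Aa against 55.3 CPM in library 3. H2-Aa likewise had 2497.5 CPM and 1217.6 CPM in Ly6c2 and Fn1 monocytes, and 1986 CPM and 704 CPM in microglia. C1qa had 395 CPM and 153 CPM in Ly6c2 and Fn1 monocytes, and 9469 CPM and 3767 CPM in microglia. In dendritic-like cells H2-Aa was lower in library 3 too, but C1qa had 163 CPM and 208 CPM. The lower levels were thus not particular to the members. Cd209a, a lectin of dendritic cells, came to 97.4% from 1 member.

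Immediate early and stress genes were lower in library 3. Of 11 compared, 0 were higher and 9 lower, with a median log2 difference of -1.09, beside 0.09 for all genes compared. Junb had 1682 CPM (1388 to 2019) and 577 CPM (458 to 717), and Fos had 863 CPM and 349 CPM. The 3 members with the most UMIs held 51.1% of the list's UMIs in library 2, and the medians per member were 0.422% and 0.335%. Without the mixed members 4 of 11 were lower (Hspa1a, Ier2, Fos and Junb). Fos was also lower in library 3 in Ly6c2 and Fn1 monocytes, with 2854 CPM and 2037 CPM.

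Genes that were higher in library 3 included Lgals3, the galectin MAC2, with 1199 CPM (954 to 1488) and 1952 CPM (1727 to 2197). Ddit4, a stress-induced inhibitor of mTOR signalling, had 14.6 CPM and 256 CPM. H2-Q7 had 14.6 CPM and 178 CPM, and Ly6a (Sca-1) had 14.6 CPM and 157 CPM. Each of these 3 rested on 1 UMI in library 2. In Ly6c2 and Fn1 monocytes 2 of the genes went the other way. These monocytes had 137 CPM and 19.1 CPM of H2-Q7, and 353 CPM and 7.66 CPM of Ly6a. Their Ddit4 had 15.2 CPM and 61.3 CPM, with counting intervals that overlapped. H2-Q genes are near copies of each other, so that the gene behind these reads is uncertain. Trem3 had 161 CPM and 420 CPM, and without the mixed members 197 CPM (98.4 to 353) in library 2, which overlapped library 3 (320 to 542). Of Hist1h2ap, a replication-dependent histone, 96.3% of the UMIs in library 3 came from 1 cell.

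**Figure D4:**
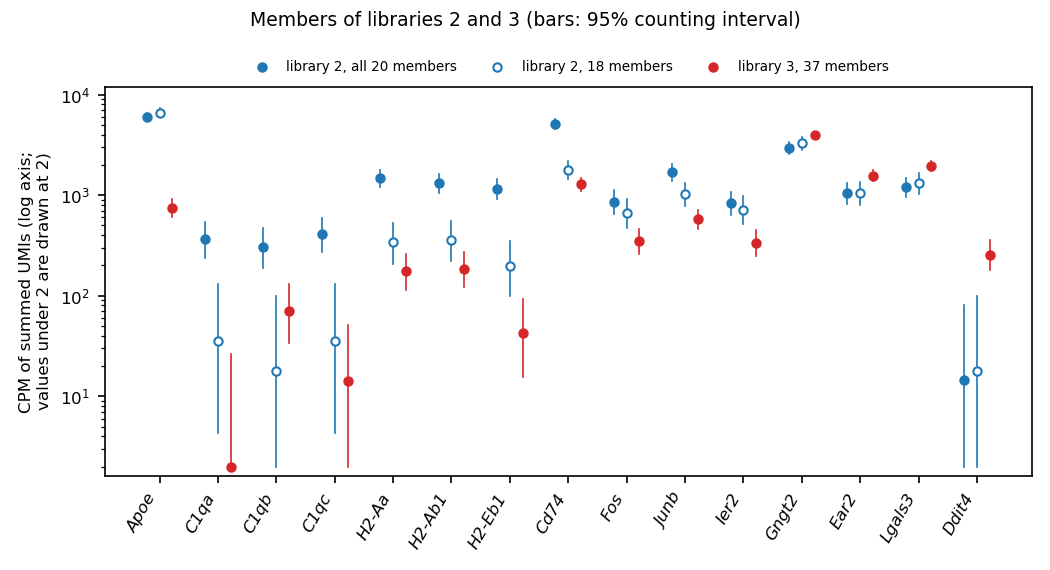
CPM of summed UMIs (log y axis, values under 2 drawn at 2) of 15 genes in the 20 members of library 2 (blue, filled), in 18 of them without the 2 mixed members (blue, open) and in the 37 members of library 3 (red), with exact 95% counting intervals. Apoe stays far apart without the mixed members (6632 CPM against 748 CPM), whereas H2-Aa comes down from 1477 CPM to 341 CPM.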

How the data were processed

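Counts of UMIs per gene and cell, 1 matrix for the whole series, were deposited by the authors, made with Cell Ranger 2.0.1 and the mm10 build per the submitters' processing notes. The annotation and the calling of cells are not given in the sources used here. Cells with at least 500 genes and at most 10% mitochondrial UMIs were kept, 2144 of 2149. Barcode numbers are tied to no group by the labels. Counts were summed per class and library (Python 3.11.15, NumPy 2.4.6, SciPy 1.17.1, pandas 2.3.3), and CPM have exact Poisson intervals and shares Clopper-Pearson intervals at 95%. The log2 ratio and both called sets were checked on simulated counts with changes far larger than 2-fold and counting error only. That check did not cover the spread between cells or changes near 2-fold. TMM factors came from edgeR 4.0.16 and doublets from Scrublet in scanpy 1.11.5. Doublets were not removed. Members and gene lists were chosen with earlier results of these data known. Genes named are those of the lists (up to 4 each with the highest level, the largest ratio or a textbook role), the 10 largest and 10 smallest ratios, the 10 highest levels and the 10 largest library differences with intervals that do not overlap. An item that meets this rule is not reported here. Trac and Trbc2 of the T cell list, Cebpd and Cd300c2 were not analysed here. Coordinates are from GENCODE M21 (GRCm38), and all 324 listed or named genes matched. Alternatives changed the rule's thresholds, the markers, the filters, the scaling and the libraries used. Those without mixed members, with a wider neutrophil limit and without natural killer marker cells were chosen after seeing the data.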

Additional observations from a re-analysis of the deposited data

Results flagged for a closer look

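The cells that met the marker condition of non-classical monocytes but were over another limit entered no comparison, although they carry the same markers. Library 1 had 0 such cells. Library 2 had 7 such cells, with a median of 1.78% of UMIs from the 27 non-classical genes outside the rule (1.38 to 2.50%) and a median of 3707 UMIs. All 7 were over the neutrophil limit, with 7.88 to 22.5% of UMIs from the 4 neutrophil genes. Summed, these cells had 88985 CPM of S100a8 and 19989 CPM of Retnlg, a neutrophil gene outside the rule. Library 3 had 9 such cells, with a median of 1.37% (1.20 to 2.04%) and 5710 UMIs, of which 5 were over the classical limit and 4 over the neutrophil limit. Scrublet marked 0 of these 16 cells.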

How the results depend on the processing

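No paired analysis was possible because each group is 1 library and the barcode numbers are tied to no group. Of 690 values followed under alternatives, 607 kept their size within the spread or within 1.5 times, 83 moved and 0 reversed. This count of 0 is not a test of direction. Counts of cells and genes cannot change sign. The 256 values of named genes were log2 ratios among the most extreme, each taken from the library where it was nearest 0. A list median near 0 could change sign and count as moved. That of immediate early and stress genes went from 0.14 to -0.34 with a marker share of at least 0.2%. The 690 values also did not cover every called gene. H2-Ab1 and Cxcl2, both called lower, changed direction in library 3 with cycling cells left out. Their log2 ratios there were then 0.41 and 1.70, while in library 2 they stayed negative, at -2.98 and -1.35. The 61 members became 32 with a marker share of at least 0.2% and 24 without library 3. Against Ly6c2 and Fn1 monocytes, 153 genes were higher and 245 lower when genes with at least 20 UMIs entered, and 44 were higher without library 3. The median of the non-classical list was 2.11, and 1.78 with a prior of 5 counts and 1.45 without library 3, where 8 of its genes were higher. The median of the classical list was -1.48, and -2.06 with a marker share of at least 0.2%. The median of the growth factor receptor and survival list was 1.40, and 0.45 when genes with at least 20 UMIs entered. The median of the cytokine list was -1.57, and -0.41 with cycling cells left out. Between libraries 3 and 2, members with that marker share gave 12 genes higher and 24 lower, and leaving out mixed members gave 33 lower. The number of genes compared changed with the cells, the libraries and the UMI limit. Counts under these alternatives are therefore not shares of the 1873 or 1423 genes. Depth limited the low genes, since 3 counts are 43.9 CPM in the members of library 2 and 21.4 CPM in those of library 3.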

Other observations

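The RNAs with the most UMIs in the members were Tmsb4x (thymosin β4, 7659 UMIs), Malat1 (a nuclear RNA, 6079 UMIs), Lyz2 (lysozyme, 3417 UMIs), Cst3 (cystatin C, 2617 UMIs), B2m (2523 UMIs) and Ftl1 (ferritin light chain, 2522 UMIs), of 223362 UMIs in all. Fcer1g (1446 UMIs), Fau, Rps29 and Rps27a completed the first 10. The share of a member's UMIs from the interferon list varied from 0.141 to 1.27%, with a median of 0.511%, and no member was at 0. The share from the cytokine list varied from 0 to 1.65%, with 8 members at 0.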
